A study of Mus musculus with 12 samples.

Results

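The white adipose tissue of control mice fed LA was compared between 12 h and the pair of times on either side of it, 4 h and 24 h. The labels chose the pools: 6 of the 12 arrays in the series came from LA-fed mice, of which 2 pools were labelled 12 h and 4 pools 4 h or 24 h. Every pool joined RNA of 5 mice, so 10 mice at 12 h stood against 20 mice at the other times. The series also held 6 pools of mice fed CLA at the same hours, used here for the estimate of the spread and for values set side by side. CLA and LA are the usual short forms of conjugated linoleic acid and linoleic acid. The labels name the tissue RP without spelling it out, and strain, sex, age, light schedule and the event from which hours were counted are not given in the sources used here. The comparison asks which transcripts of control fat differed with the hour of sampling.

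White fat holds a circadian clock, a loop of transcription factors that runs in most cells of the body. CLOCK, or its relative NPAS2, pairs with BMAL1, the product of Arntl, and switches on genes that carry E-boxes. Among those genes are the period (Per1, Per2, Per3) and cryptochrome (Cry1, Cry2) genes, whose proteins hold CLOCK and BMAL1 back, and the REV-ERB genes (Nr1d1, Nr1d2), whose proteins repress Arntl and Cry1. Fat also follows feeding: insulin after a meal favours the storage of triglyceride, and its fall during a fast releases fatty acids by lipolysis.

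After scaling, 44.7% to 49.6% of the probe sets reached an intensity of 100 on the 6 LA arrays. Signal at the 3' end of Actb divided by that at its 5' end, which grows as RNA is broken or labelled in part, stood at 2.37 and 2.82 in the 4 h pools, 3.8 and 6.41 in the 12 h pools, and 2.65 and 4.07 in the 24 h pools. Replicate 2 of 12 h therefore had the highest ratio of the 6. The summed intensity of 8 liver marker genes was 2448 and 2450 at 4 h, between 2664 and 3742 at 12 h, and between 8719 and 13980 at 24 h, so the 24 h pools held more liver transcript than the rest. On the first principal component of the LA arrays, with 28.5% of their variance, the 12 h pools scored 18.12 and 40.28 and the 4 h pools -34.43 and -27.59. Replicate 2 of 24 h stood apart on the second component (23.8% of the variance) at -51.05. The counts that rest most on these arrays, and the genes with the largest changes, are also given without replicate 2 of 12 h.

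In the white fat markers checked, the tissue carried the transcripts its label calls for. Adipoq (adiponectin, a hormone of fat cells) had a scaled intensity between 44436 and 64020 on the 6 arrays, and Fabp4 (the fatty acid carrier of fat cells) between 69443 and 81500. Fabp4 stood at 95% to 100% of the brightest probe set of each array, and Scd1 and Lpl at 88% to 100% and 81% to 88%, which leaves little room above them on the scale.

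No gene passed an adjusted p of 0.05 (limma, Benjamini-Hochberg over 12627 genes) when 12 h was compared with 4 h and 24 h averaged. At an unadjusted p under 0.05 there were 1180 genes with higher and 835 with lower signal at 12 h, which is 9.35% and 6.61% of the genes tested. When the prior variance was allowed to follow the mean intensity, a variant of the same limma fit, 67 genes passed (0.531%), 25 of them higher and 42 lower at 12 h. The 67 genes lost all calls when the Actb ratio entered the fit as a covariate, and also without replicate 2 of 12 h, where 0 passed. Unscaled arrays gave 430 higher and 26 lower calls with the trend, so the balance of directions moved with the scaling. The 67 are therefore described as genes called with an intensity trend, and their adjusted p in both fits is given. With the trend, 0.198% of genes were called higher and 0.333% lower. Both 12 h pools lay above all 4 other LA pools for 2314 genes (18.3%) and below all 4 for 1584 genes (12.5%), and beyond them in either direction for 30.9%, the background against which counts of this kind are read below.

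**Figure D1:**
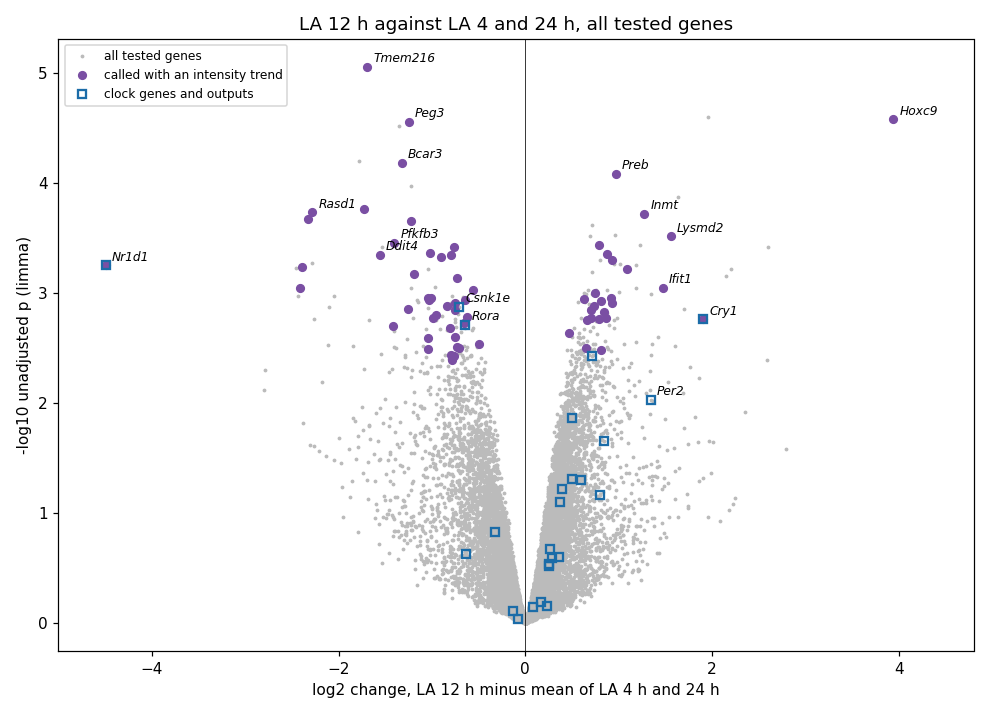
Change at 12 h for each of the 12627 genes: the x axis is the log2 change of LA 12 h against the mean of LA 4 h and 24 h, the y axis is -log10 of the unadjusted limma p, filled circles are the 67 genes called with an intensity trend and open squares the clock genes and outputs. Nr1d1 lies farthest to the left at -4.49 and Hoxc9 farthest to the right at 3.94 among the labelled genes.

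The repressors Nr1d1 and Cry1 gave the clearest clock values. Nr1d1, which encodes the repressor REV-ERB alpha, had scaled intensities of 413 and 376 at 4 h, -2.03 and -22 at 12 h, and 176 and 505 at 24 h. Both 12 h pools were at the background of the array and below all 4 other pools. With the 12 h pools set at 100, the lowest intensity counted as measured, Nr1d1 was at least 3.10-fold lower at 12 h. The fitted log2 change was -4.49 ± 0.82 (SE, 2 against 4 pools), with an adjusted p of 0.179 in limma and 0.0174 with an intensity trend. That fitted value is no bound: it ran from -2.99 with an offset of 50 to -6.44 with an offset of 4.

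Cry1, which encodes a repressor of CLOCK and BMAL1, ran the other way. Its scaled intensity was 165 and 235 at 4 h, 925 and 801 at 12 h, and 432 and 130 at 24 h. The 12 h pools were the highest of the 6 and did not overlap with the others. The log2 change was 1.91 ± 0.42 (SE), or 3.75-fold, with an adjusted p of 0.186 in limma and 0.0383 with an intensity trend. Without replicate 2 of 12 h the log2 change of Cry1 was 2.01. That of Nr1d1 stayed at -4.49, which was fixed in advance, since both its 12 h pools lay below 0 and were set to 0. With the Actb covariate the log2 changes were 2.19 for Cry1 and -3.66 for Nr1d1 (limma with an intensity trend, adjusted p 0.412 and 0.448). No other clock gene passed either fit.

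The RefSeq promoter windows of both genes (build GRCm38.p6, 250 bases before to 50 after the gene's start, minus strand) are shown because Nr1d1 and Cry1 were the clock genes called with an intensity trend. Capitals mark E-boxes: CACGTG, and the variant CACGTT, which is read as AACGTG on the strand printed. The windows are chr11:98775328-98775627 and chr10:85185005-85185304.
Nr1d1: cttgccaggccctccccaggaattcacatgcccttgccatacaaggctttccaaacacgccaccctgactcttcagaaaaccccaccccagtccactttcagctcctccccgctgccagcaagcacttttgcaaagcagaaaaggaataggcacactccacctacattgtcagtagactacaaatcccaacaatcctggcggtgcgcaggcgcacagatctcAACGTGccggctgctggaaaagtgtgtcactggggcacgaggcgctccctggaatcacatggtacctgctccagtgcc
Cry1: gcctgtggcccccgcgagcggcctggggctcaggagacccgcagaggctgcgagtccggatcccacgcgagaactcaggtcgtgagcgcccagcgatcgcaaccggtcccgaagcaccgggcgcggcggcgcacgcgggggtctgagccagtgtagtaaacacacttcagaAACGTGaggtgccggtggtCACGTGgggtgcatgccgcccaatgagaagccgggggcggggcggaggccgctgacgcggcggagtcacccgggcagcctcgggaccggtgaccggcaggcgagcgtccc
The Nr1d1 window held the variant at base -28 from the gene's start, and the Cry1 window held the variant at -79 and the E-box at -60. Searched on both strands, CACGTG was present in 7.15% of all 32851 mouse windows of this length and CACGTT in 4.68%; the forms do not share a site. Of the 30 windows of 20 matched clock genes and outputs, 16.7% held CACGTG and 10% held CACGTT. The 27 windows of 24 matched genes among the 30 named by size for their calls held them in 25.9% and 14.8%. Nr1d1 and Cry1 belong to both sets. In the set named by size, CACGTT was present in Nr1d1, Cry1, Cox8b and Ddit4. The shares of the sets are therefore not independent and are not ranked here. A match describes letters and does not show binding.

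Among the remaining clock activators and repressors, values lay closer together. Of 20 genes listed, 16 were tested; Bhlhe41 and Fbxl21 did not reach the intensity filter, and the rest were not analysed here. Of the 16, 9 lay above 0 and 7 below, and 6 had 12 h pools beyond all others, 2 above and 4 below (30.9% of all genes lay beyond). Rora, whose product activates Arntl at the element that REV-ERB represses, had scaled intensities of 1432 and 1421 at 4 h, 825 and 886 at 12 h, and 1090 and 1471 at 24 h, a log2 change of -0.64 ± 0.14 (adjusted p 0.193 in limma). Both 12 h pools were the lowest, but the 7 probe sets of Rora kept here ranged from -1.10 to 1.32 and did not point one way. Csnk1e, a casein kinase that marks PER proteins for breakdown, read 881 and 862 at 4 h, 556 and 448 at 12 h, and 709 and 865 at 24 h, a log2 change of -0.71 ± 0.15 (adjusted p 0.186). Its close relative Csnk1d had a log2 change of 0.50 ± 0.16 (adjusted p 0.245). Each of these kinases had kept probe sets of opposite sign, from -0.71 to 0.32 for Csnk1e and from -0.67 to 0.50 for Csnk1d.

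The activators Arntl and Clock had overlapping groups by the probe set used for each. Arntl read 413 and 215 at 4 h, 447 and 444 at 12 h, and 470 and 403 at 24 h, a log2 change of 0.29 ± 0.24 (adjusted p 0.558). Clock had a log2 change of 0.26 ± 0.19 (adjusted p 0.516). Its 4 kept probe sets ranged from -0.38 to 0.26, with 2 above 0 and 2 below. In both of those below 0 the 12 h pools were lower than the other 4 LA pools. Cry2, the second cryptochrome, had a log2 change of -0.32 ± 0.20 (adjusted p 0.45), opposite in sign to Cry1, and its 12 h pools of 798 and 743 were below the other 4, of 838 to 1121. Nr1d2, the relative of Nr1d1, had a log2 change of 0.26 ± 0.23 (adjusted p 0.603) and overlapping groups, from 2207 to 2412 at 12 h and from 1512 to 2482 at the other hours. Bhlhe40, a repressor at E-boxes, had a log2 change of 0.36 ± 0.29 (adjusted p 0.555). Npas2 and Ciart were under 100 in both 12 h pools and get no fold. Timeless had a log2 change of 0.24 ± 0.58 (adjusted p 0.86).

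By the probe set used for each, the period genes were lowest at 24 h, so the times averaged as the comparator held unlike levels. Per2 read 197 and 353 at 4 h, 336 and 369 at 12 h, and 91.6 and 35.8 at 24 h. Its 12 h pools were close to those of 4 h and above those of 24 h, and the log2 change at 12 h was 1.35 ± 0.40 (adjusted p 0.228). Per3 read 310 and 297 at 4 h, 437 and 308 at 12 h, and 120 and 153 at 24 h, and Per1 read 204 and 475 at 4 h, 165 in both pools at 12 h, and 77.2 and 137 at 24 h. The log2 change from 4 h to 24 h was -1.07 for Per3 and -1.46 for Per1, and Per2, under 100 in both 24 h pools, gets no fold there. None passed in either fit. In all 3 period genes both 24 h pools lay below both 4 h pools by these probe sets. Other kept probe sets differed. Per3 had a dimmer kept probe set that ran the other way, at 41.6 and 85.6 at 4 h and 193 and 210 at 24 h. In another of Per3 (140 and 168, then 157 and 236) and another of Per2 (30 and 107, then 75.1 and 83.9) these hours overlapped.

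The outputs Dbp, Usp2 and Nfil3 were lowest at 24 h as well. DBP, TEF and HLF are activators that bind the D-box, NFIL3 represses from it, and the period genes are among those that carry it. Dbp read 3557 and 6013 at 4 h, 3267 and 3259 at 12 h, and 1188 and 2762 at 24 h, so 12 h fell between the other times. Usp2, a deubiquitinase, read 422 and 778 at 4 h, 545 and 490 at 12 h, and 189 and 202 at 24 h. Nfil3 read 909 and 753 at 4 h, 494 and 470 at 12 h, and 312 and 197 at 24 h, with a log2 change of -1.68 from 4 h to 24 h (adjusted p 0.179 in limma, 0.0146 with an intensity trend). For these genes a mean of 4 h and 24 h lies near the 12 h level: the log2 changes at 12 h were 0.17 ± 0.36 for Dbp, 0.60 ± 0.26 for Usp2 and 0.08 ± 0.20 for Nfil3, with adjusted p of 0.837, 0.313 and 0.871.

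The promoter windows of Per3 (chr4:151044616-151044915) and Nfil3 (chr13:52980990-52981289), both on the minus strand of GRCm38.p6, are shown for the D-box and for the element bound by ROR and REV-ERB. Capitals mark TTATGTAA in Per3 and TAGGTCA in Nfil3, where it reads TGACCTA on the strand printed.
Per3: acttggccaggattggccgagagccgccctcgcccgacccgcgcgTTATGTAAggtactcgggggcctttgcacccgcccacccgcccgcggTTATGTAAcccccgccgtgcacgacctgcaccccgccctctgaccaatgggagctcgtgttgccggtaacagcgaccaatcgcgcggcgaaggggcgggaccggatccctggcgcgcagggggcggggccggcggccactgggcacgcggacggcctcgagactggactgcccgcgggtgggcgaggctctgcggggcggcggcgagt
Nfil3: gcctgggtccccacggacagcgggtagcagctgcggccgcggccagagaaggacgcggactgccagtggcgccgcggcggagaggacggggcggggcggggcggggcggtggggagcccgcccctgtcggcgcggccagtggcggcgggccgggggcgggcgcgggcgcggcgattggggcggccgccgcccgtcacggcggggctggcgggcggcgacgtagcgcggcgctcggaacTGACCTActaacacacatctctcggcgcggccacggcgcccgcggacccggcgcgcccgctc
The Per3 window held the D-box at -205 and -158, and the Nfil3 window held TAGGTCA at -12. TTATGTAA was present in 0.938% of all windows and TAGGTCA in 2.61%, each in 6.67% of the clock windows. TGGGTCA, the other form of the ROR element, was in 3.98% of all windows and 0 of the clock windows, and TGACGTCA, the cAMP element, in 1.79% and 3.33%.

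All 9 output genes lay above 0 at 12 h, against 55.6% of all genes tested, with a median log2 change of 0.39 against 0.06 over all genes. Their count was 8 of 9 with the Actb covariate and without either 24 h replicate, and 7 of 9 with a gene's probe sets averaged. Kept probe sets of opposite sign were present for Dbp (-0.60 to 0.17), Tef (-0.91 to 0.25), Tsc22d3 (-0.16 to 0.71) and Nampt (-0.13 to 0.37). None passed in either fit. Tsc22d3, which encodes the glucocorticoid-induced protein GILZ, read 2965 and 3105 at 4 h, 3620 and 5025 at 12 h, and 2169 and 2279 at 24 h, a log2 change of 0.71 ± 0.18 (adjusted p 0.211 in limma, 0.0558 with an intensity trend). Wee1, a kinase that holds back mitosis, read 279 and 355 at 4 h, 508 and 633 at 12 h, and 246 and 375 at 24 h, a log2 change of 0.84 ± 0.30 (adjusted p 0.256). By these probe sets the 12 h pools were the highest of both genes, as they were for Nampt, the enzyme that limits NAD synthesis, at 6968 and 7190 against 4799 to 6275, and for Klf10 at 2413 and 2329 against 1641 to 2058. Hlf had a log2 change of 0.50 ± 0.22 and Tef of 0.25 ± 0.22, with overlapping groups.

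Over the 25 clock genes and outputs tested, both 24 h pools lay below both 4 h pools for 13 and above for 2, against 18.2% and 22.9% of all genes. At an unadjusted p under 0.05 (limma), 8 of the 25 were lower and 0 higher at 24 h than at 4 h, where 3.34% of all genes were lower and 4.83% higher. The average of 4 h and 24 h was therefore an average of unlike levels for many of these genes.

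**Figure D2:**
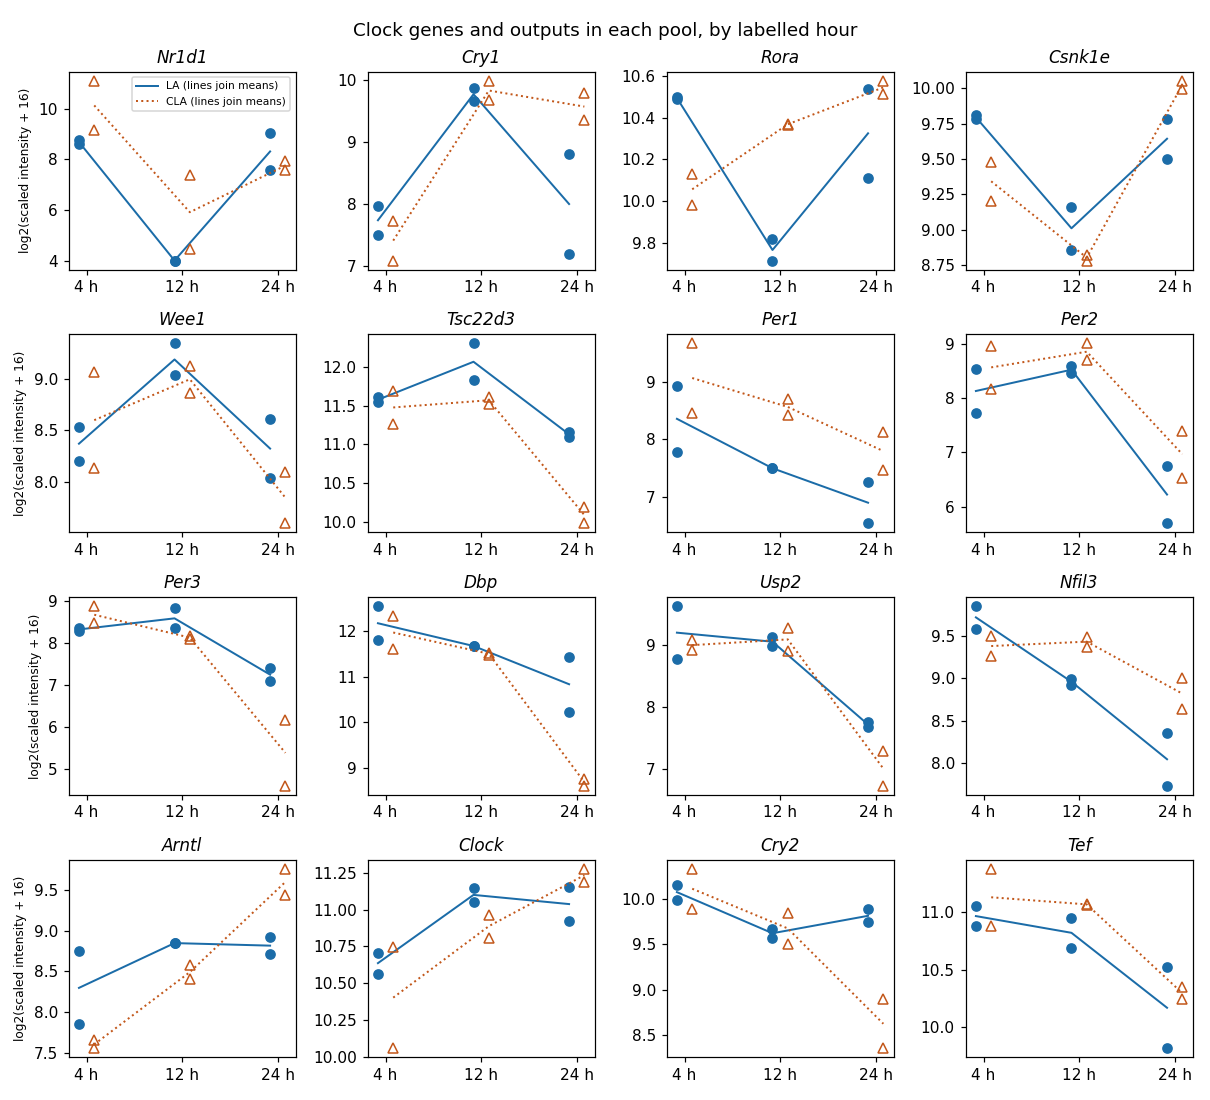
Levels of 16 clock genes and outputs by labelled hour, on a log2 scale of scaled intensity plus 16: filled circles are single LA pools, open triangles single CLA pools, and the lines join the means of 2 pools. LA Nr1d1 is lowest and LA Cry1 highest at 12 h, while Per2, Usp2 and Nfil3 are lowest at 24 h.

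The CLA pools of the same hours enter no LA mean, although all 12 arrays share 1 estimate of the spread. Nr1d1 read 2166 and 553 at 4 h, 149 and 5.84 at 12 h, and 224 and 176 at 24 h in the CLA pools, again with the 12 h pools lowest and a log2 change of -3.03 (adjusted p 0.131 in limma; with an intensity trend 0.0272, where 1.87% of all genes were lower and 1.64% higher). Cry1 read 120 and 196 at 4 h, 804 and 1003 at 12 h, and 868 and 643 at 24 h, so its 12 h and 24 h levels overlapped there, with a log2 change of 1.34 (adjusted p 0.169). Of the 25 genes, 18 had the same sign in both diets, against 57.7% of all genes. Csnk1e was the 1 clock gene that passed limma in the CLA pools, at -0.88 (adjusted p 0.0454), where 0.594% of all genes were lower and 0.182% higher. The difference between the diets in the 12 h change did not pass for any of the 25 genes in either fit, and 4 had an unadjusted p under 0.05 (11.9% of all genes), which does not show that the diets ran alike.

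Outside the clock, the genes with higher signal at 12 h that were called with an intensity trend were chosen by size after values were seen, since the rule for named genes found none in the ordinary fit. Hoxc9, a homeobox gene of positional identity, had scaled intensities of -42.3 and -147 at 4 h, 287 and 312 at 12 h, and 27.2 and -151 at 24 h. It reached 100 in the 12 h pools alone, at least 2.72-fold above the other LA pools (adjusted p 0.0762 in limma, 0.0496 with an intensity trend). Hoxc9 thus passed the intensity filter only through the pools where it was high, and its p values lend no support. Inmt, a methyltransferase of indole amines, read 419 and 474 at 4 h, 1156 and 1267 at 12 h, and 529 and 552 at 24 h. The 12 h pools did not overlap with the rest, and its log2 change was 1.28 ± 0.20 (adjusted p 0.179 in limma, 0.0174 with an intensity trend). In the CLA pools Inmt had a log2 change of 1.47 and passed limma (adjusted p 0.0301), as did 0.776% of all genes.

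Lysmd2, a gene with a LysM domain, read 134 and 77.4 at 4 h, 396 and 514 at 12 h, and 150 and 257 at 24 h, a log2 change of 1.56 ± 0.26. Ifit1, an interferon-induced gene, read 367 and 558 at 4 h, 1457 and 1136 at 12 h, and 600 and 345 at 24 h, a log2 change of 1.47 ± 0.29. Both had 12 h pools above the other 4. Preb, whose product helps to form transport vesicles at the endoplasmic reticulum, read 1796 and 2057 at 4 h, 3376 and 3857 at 12 h, and 1777 and 1742 at 24 h, a log2 change of 0.97 ± 0.13 (adjusted p 0.131 in limma, 0.00853 with an intensity trend). Its 3 kept probe sets ran from -0.98 to 0.97. Cited2, a co-regulator that restrains HIF1, had a log2 change of 0.93 ± 0.19, with probe sets from -0.58 to 0.93. Pdxk, the kinase that activates vitamin B6, had a log2 change of 0.86 ± 0.19, and the kinases Stk35 and Sbk1 had 1.08 ± 0.20 and 0.92 ± 0.17.

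Among the other genes of the 25 were some that act on RNA, set side by side here after the calls were seen. Srsf2, a splicing factor, read 3266 and 2855 at 4 h, 5016 and 5280 at 12 h, and 3362 and 2817 at 24 h, a log2 change of 0.74 ± 0.15. Hnrnpd, which binds AU-rich messages, had 0.82 ± 0.17 and its relative Hnrnpdl 0.74 ± 0.15. Cpsf6, a factor of 3' end cleavage, had 0.87 ± 0.15, Pabpn1, the nuclear poly(A)-binding protein, 0.79 ± 0.17, and Trub2, a pseudouridine synthase, 0.92 ± 0.19. These 6 log2 changes had adjusted p between 0.179 and 0.186 in limma and between 0.0314 and 0.0352 with an intensity trend. Srsf2, Hnrnpd, Cpsf6 and Pabpn1 each had 1 kept probe set of opposite sign, while all those of Hnrnpdl and Trub2 lay above 0. Ddx54 and Eif4a1, RNA helicases, and the non-coding Snhg1 were called as well, each with at least 1 opposite probe set (2 of 3 for Eif4a1). The other genes of the 25 were Zfp664, Rad23b, Ergic1, Paqr9, Mylk and Spcs1. Kept probe sets of opposite sign were present for Mylk (2 of 3, from -0.90 to 0.63), Ergic1 (1 of 4) and Spcs1 (1 of 2).

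Among the 42 genes with lower signal at 12 h, Rasd1 had the largest change of those above 100 in both 12 h pools. Rasd1, a Ras-like protein induced by dexamethasone, read 3303 and 2390 at 4 h, 865 and 410 at 12 h, and 2625 and 3728 at 24 h. Its log2 change was -2.28 ± 0.35, or 4.87-fold (adjusted p 0.179 in limma, 0.00735 with an intensity trend). The CLA pools gave -2.36, which passed limma (adjusted p 0.0362). Pfkfb3, which makes the activator of glycolysis fructose 2,6-bisphosphate, read 7076 and 5856 at 4 h, 2472 and 1783 at 12 h, and 4801 and 4854 at 24 h. The 12 h pools were the lowest, with a log2 change of -1.40 ± 0.24 (adjusted p 0.179 in limma, 0.0133 with an intensity trend).

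Ddit4, a brake on mTORC1 and a target of glucocorticoids, read 2524 and 2305 at 4 h, 501 and 812 at 12 h, and 1429 and 1600 at 24 h, a log2 change of -1.56 ± 0.28 (adjusted p 0.179 in limma, 0.0174 with an intensity trend). Tmem216, a protein of the base of the cilium, read 1567 and 1666 at 4 h, 353 and 306 at 12 h, and 703 and 788 at 24 h, a log2 change of -1.69 ± 0.17 (adjusted p 0.0762 in limma, 0.00423 with an intensity trend). Against 4 h alone Tmem216 had a log2 change of -2.24 and was the 1 gene that passed limma (adjusted p 0.0387, 0.00792% of the genes). Bcar3, an adaptor of cell adhesion signalling, read 3411 and 2704 at 4 h, 1502 and 1337 at 12 h, and 3916 and 4509 at 24 h, a log2 change of -1.32 ± 0.18. Peg3, an imprinted zinc finger gene, read 1597 and 1503 at 4 h, 632 and 495 at 12 h, and 1093 and 1281 at 24 h, a log2 change of -1.25 ± 0.15. Tmem216, Bcar3 and Peg3 had 12 h pools below all others and stayed called with an intensity trend in 11 of the 12 fits that left out 1 array. That count was 10 for Rasd1 and Preb, 9 for Pfkfb3, 8 for Inmt, 7 for Nr1d1 and Ddit4, 5 for Pck1, 3 for Cry1, and 2 for Hoxc9 and Acadl. Without replicate 2 of 12 h the log2 change was -1.76 for Rasd1, -1.17 for Pfkfb3 and -1.90 for Ddit4.

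Of the others named by size, Rhoj, a small GTPase, had a log2 change of -1.22 ± 0.20 and Ccl2, the monocyte chemokine, -1.19 ± 0.22. Ntpcr, a nucleoside triphosphatase, read 205 and 151 at 4 h, 121 and 52.1 at 12 h, and 553 and 480 at 24 h, a log2 change of -1.72 ± 0.27, so that its 4 h pools lay nearer to 12 h than to 24 h. Pfn1, an actin-binding profilin, read 5085 and 4189 at 4 h, 1550 and 873 at 12 h, and 2103 and 2147 at 24 h, a log2 change of -1.42 ± 0.32. Apoc1 and Fars2, a mitochondrial aminoacyl-tRNA synthetase, had a log2 change of -1.04 each, and the 2 kept probe sets of Fars2 opposed each other at -1.04 and 0.58. Stat3, which carries cytokine signals to the nucleus, had -0.77 ± 0.13 in the LA pools, with 4 kept probe sets from -0.77 to 0.82, and passed limma in the CLA pools at -0.94 (adjusted p 0.0308). Across the 67 genes, 37 had more than 1 kept probe set, and in 17 of the 37 at least 1 probe set pointed the other way.

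**Figure D3:**
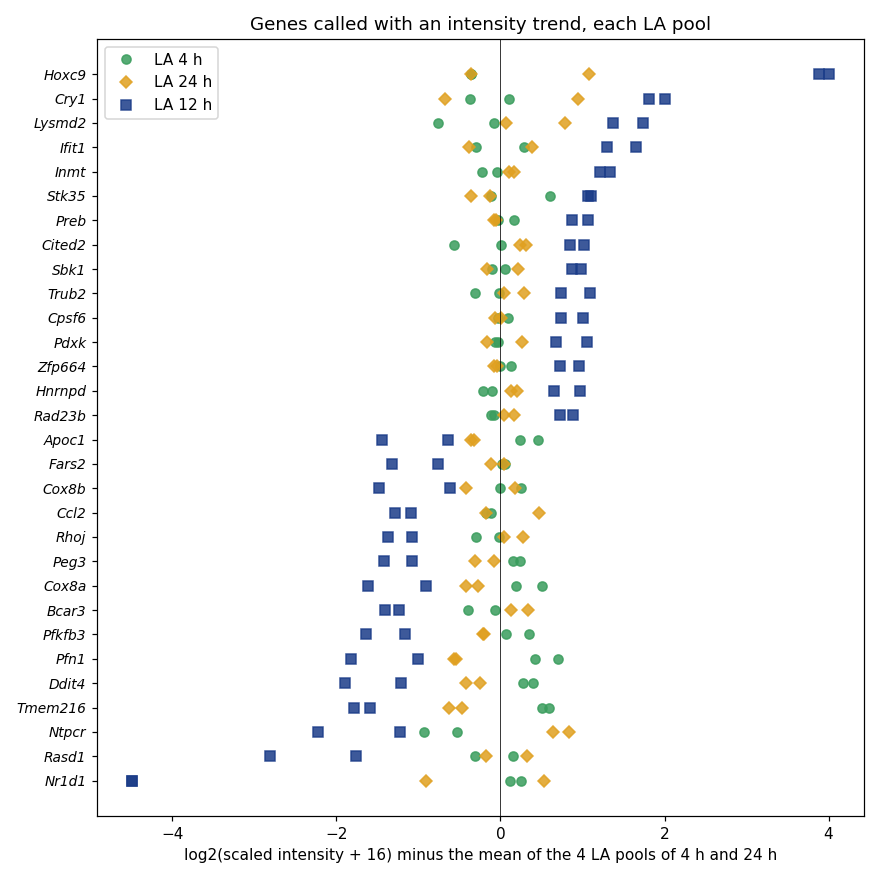
Levels of the 30 genes named by size among those called with an intensity trend, in each LA pool: the x axis is log2(scaled intensity + 16) minus the mean of the 4 pools of 4 h and 24 h, squares are the 12 h pools, circles 4 h and diamonds 24 h. The 12 h squares lie outside the other pools in every gene shown, from Nr1d1 at the bottom (-4.49) to Hoxc9 at the top (3.94).

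Of the 67 genes, 49 (73.1%) had the same sign in the CLA pools, where the share of all genes was 57.7%. The Actb ratio was highest at 12 h in the CLA pools too, at 4.24 and 6.1 against 2.35 to 4.13, and its part in this share was not tested. With an intensity trend 8 of them passed in the CLA pools as well, where 3.51% of all genes did so: Inmt, Lysmd2 and Snhg1 higher, and Nr1d1, Rasd1, Bcar3, Rhoj and Stat3 lower. The change at 12 h differed between the diets with an intensity trend for 9 of the 67, namely Hoxc9, Ifit1, Ntpcr, Peg3, Acadl, Hspb1, Eif4a1, Mien1 and Sqstm1 (0.475% of all genes). For 6 genes this difference passed limma itself (0.0475% of all genes), but for 1 with the Actb covariate, 1 with the replicate block, 2 unscaled and 1 to 4 without each array in turn. They were Hoxc9 with a log2 difference of 6.08 ± 0.66 (adjusted p 0.0464), Slfn4 with 3.11 ± 0.15 (adjusted p 0.000239), Chil3, Klra2, Icam1 and Clec4n. Hoxc9 was under 100 in all CLA pools, so the size of its difference depends on the offset. It passed the intensity filter only through the LA pools of 12 h, so its p lends no support. Slfn4, of the Schlafen family, was below 0 in all 6 LA pools and read 1179 and 1177 in the CLA pools of 24 h, and Chil3, a chitinase-like protein of macrophages, read 63.9 to 130 in the LA pools and 6961 and 5717 in the CLA pools of 24 h. In both genes the CLA pools of 24 h were the high samples, and the LA pools lay near or below 100 throughout. For Slfn4 all 6 LA pools were set to 0, which fixed its LA change at 12 h and left no spread between its LA replicates. Its small standard error and p rest in part on that floor.

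Genes of lipolysis and fasting were the list of metabolism with the lowest median at 12 h. Of 30 listed, 24 were tested, 19 lay below 0 and 5 above, and the 12 h pools were below all others for 11 and above for 1 (12.5% and 18.3% of all genes). The median log2 change was -0.38, against 0.06 over all genes. At an unadjusted p under 0.05, 8 were lower and 0 higher (6.61% and 9.35% of all genes). Without replicate 2 of 12 h, 17 of the 24 were below 0 with a median of -0.17, and with the Actb covariate 19 were below 0 with a median of -0.17; the 8 lower at an unadjusted p became 2 in each. Unscaled arrays gave 15 below 0 and a median of -0.10, where the median of all genes was 0.33.

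Pck1, which makes phosphoenolpyruvate, a step toward the glycerol of triglyceride in fasting fat, read 13669 and 17046 at 4 h, 8843 and 6655 at 12 h, and 14816 and 15566 at 24 h. Its 12 h pools were the lowest, with a log2 change of -0.99 ± 0.21 (adjusted p 0.186 in limma, 0.0314 with an intensity trend), and of -0.78 without replicate 2. Acadl, which starts the oxidation of long-chain fatty acids, read 15734 and 16652 at 4 h, 11696 and 10090 at 12 h, and 14636 and 14477 at 24 h, a log2 change of -0.50 ± 0.12 (adjusted p 0.211 in limma, 0.0479 with an intensity trend). Mgll, the last lipase of triglyceride breakdown, had a log2 change of -0.75 ± 0.21 (adjusted p 0.224), and Lipe, hormone-sensitive lipase, of -0.80 ± 0.32 (adjusted p 0.278). Lipe read 5720 and 4185 at 12 h against 5957 to 10860 in the other pools. In the CLA pools the list's median log2 change was 0.14, with 0.02 for Pck1 and 0.37 for Acadl, and the difference between diets passed with an intensity trend for Acadl and not for Pck1.

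The white fat markers lay on the same side. Of 13 listed, 11 were tested, with Lipe shared with the list above; 10 were below 0 and 8 had 12 h pools below all others, with a median log2 change of -0.26 (-0.21 without replicate 2 of 12 h) and none past the test. Their summed intensity was 301000 and 321100 at 12 h and 335900 to 373600 in the other 4 pools, so the sums did not overlap. In bulk tissue, fewer cells of a type and less RNA per cell cannot be told apart. Cidec, a lipid droplet protein, had a log2 change of -0.75 ± 0.29 (adjusted p 0.275), Adipoq of -0.32 ± 0.14 (adjusted p 0.321) and Slc2a4, the insulin-responsive glucose transporter, of -0.41 ± 0.26 (adjusted p 0.447). Lep, which encodes leptin, was the 1 marker above 0, at 20922 and 20958 against 14047 to 17876 and a log2 change of 0.44 ± 0.28 (adjusted p 0.451). Retn had a log2 change of -0.17 ± 0.13 and Pparg of -0.26 ± 0.12; unscaled, the markers' median was 0.02, and Fabp4, Pparg, Retn, Lpl and Cd36 were above 0.

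Markers of brown fat summed to 4642 and 7239 at 12 h and 7825 to 10400 at the other times. Ucp1, the defining brown fat gene, reached 100 in the 4 h pools alone and overlapped between groups, while Cox8b, a subunit of cytochrome oxidase, read 4899 and 5813 at 4 h, 3198 and 1752 at 12 h, and 3671 and 5522 at 24 h and was called with an intensity trend (log2 change -1.04 ± 0.25, adjusted p 0.0479). Macrophage markers summed to 33470 and 35630 at 12 h and 32480 to 37160 at the other times, and their median log2 change was 0.03 over 15 genes. Neutrophil, T and NK cell, mast cell, skeletal muscle, kidney, adrenal, pancreas and red blood cell markers gave 0 genes with both 12 h pools beyond the others. B cell markers gave 1 of 3, endothelial 3 of 9, mesothelial 4 of 9 and fibroblast and preadipocyte markers 3 of 11, where 30.9% of all genes lay beyond in either direction. Counts this small and this near that share do not show a change in these cell types. The part of these cell types in the results above was not tested.

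Insulin signalling and glucose use did not move as one list. Of 31 genes tested, 19 were above 0 and 12 below, near the share of all genes, and the median log2 change was 0.08. At an unadjusted p under 0.05 (limma), 7 of the 31 were higher and 2 lower, against 9.35% and 6.61% of all genes. With the Actb covariate 2 were higher and 2 lower, where 387 and 454 of the 12627 genes were. Apart from Pfkfb3, Pik3r1, the regulatory subunit of PI3-kinase, read 3903 and 2952 at 4 h, 3897 and 3493 at 12 h, and 1626 and 1313 at 24 h. Its 12 h level overlapped with 4 h and exceeded 24 h, with a log2 change at 12 h of 0.72 ± 0.18 (adjusted p 0.211) and of -1.21 from 4 h to 24 h (adjusted p 0.0284 with an intensity trend). Hk2, a hexokinase, was highest at 12 h, at 12091 and 12052 against 6477 to 10340, a log2 change of 0.51 ± 0.15 (adjusted p 0.234).

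Synthesis of fatty acids and of cholesterol gave medians of -0.06 over 26 genes and -0.02 over 18 genes. Mid1ip1, which promotes the assembly of acetyl-CoA carboxylase, read 8009 and 6212 at 4 h, 9330 and 16330 at 12 h, and 6581 and 5312 at 24 h, a log2 change of 0.93 ± 0.29 (adjusted p 0.244). Pnpla3, a lipase-like protein that follows feeding, read 4304 and 5311 at 12 h against 2575 to 3403, a log2 change of 0.74 ± 0.20 (adjusted p 0.217). Dhcr7, the last enzyme of cholesterol synthesis, read 2579 and 4197 at 12 h and 2528 and 2444 at 24 h but 1334 and 1219 at 4 h, so that replicate 1 of 12 h lay close to 24 h. Fasn, the fatty acid synthase, had a log2 change of -0.22 ± 0.15 (adjusted p 0.49).

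Stress and hormone lists were split as well. Of 22 heat shock and chaperone genes, 13 were above 0. At an unadjusted p under 0.05 (limma), 6 of the 22 were higher and 3 lower, against 9.35% and 6.61% of all genes. These counts became 0 and 1 with the Actb covariate. Dnajb1, a co-chaperone, was higher in both 12 h pools at 3005 and 2845 against 1667 to 2010, a log2 change of 0.69 ± 0.19 (adjusted p 0.215). Its other kept probe set had a log2 change of 0.06, and its 1045 and 762 at 12 h overlapped with 731 to 958. Hspb1, a small heat shock protein, was lower at 2776 and 3528 against 3757 to 6791, a log2 change of -0.78 ± 0.20 (adjusted p 0.212 in limma, 0.049 with an intensity trend). Of 20 glucocorticoid targets, 10 were above 0 and 10 below, with Ddit4 and Tsc22d3 on opposite sides. In the same limma fit 2 of the 20 were higher and 5 lower at an unadjusted p under 0.05, and 0 and 3 with the Actb covariate. Of 21 immediate early genes, 12 were above 0; Ier2 and Nr4a2 had log2 changes of -1.09 ± 0.29 and -0.78 ± 0.16 (adjusted p 0.214 and 0.186), with 5 kept probe sets of Nr4a2 from -0.78 to 0.18, and the groups of Fos overlapped at 302 to 452. Of 12 adipokines, 9 were below 0, with Ccl2 called as above. Lcn2 reached 100 in 1 LA pool only and gets no fold.

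**Figure D4:**
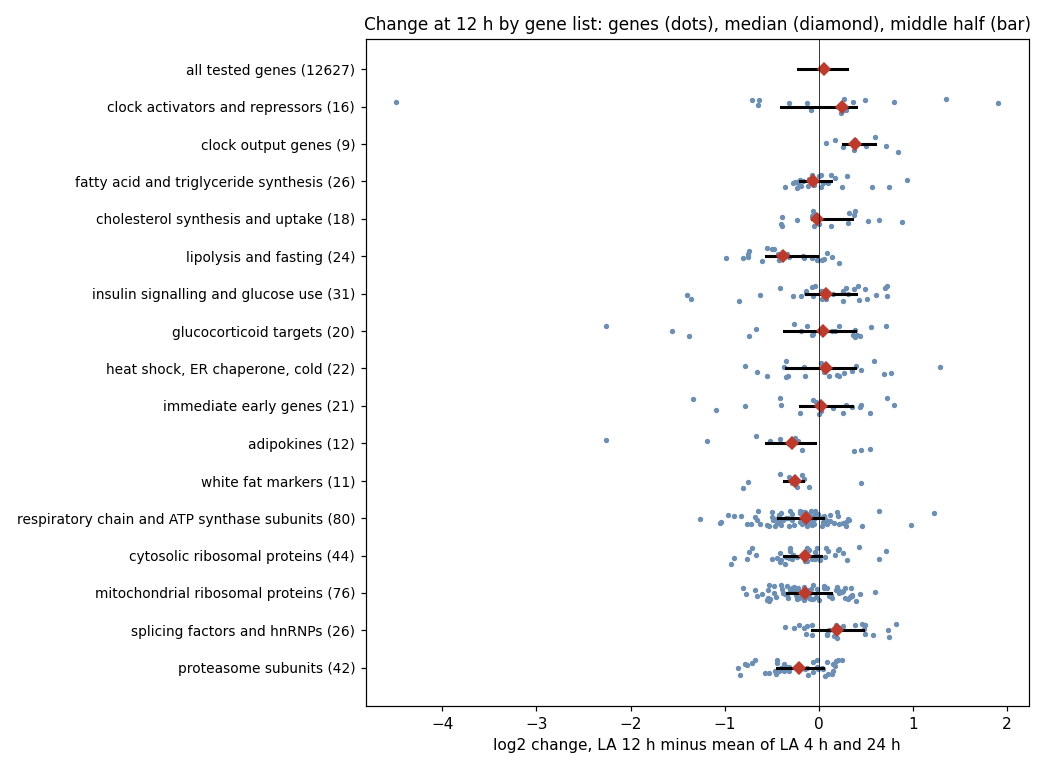
Change at 12 h by gene list and family: each dot is a gene at its log2 change of LA 12 h against LA 4 h and 24 h, diamonds are medians, bars span the interquartile range, and the number of genes stands in brackets. Lipolysis and fasting genes have a median of -0.38, clock outputs 0.39 and all tested genes 0.06.

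Genes of the respiratory chain recurred among the 42 lower calls, and families were counted for this reason, after values were seen. Of 80 genes with symbols of the respiratory chain and ATP synthase, 57 were below 0 and 35 had 12 h pools below all others, with 7 called with an intensity trend. The 80 were taken by symbol and include Cox7a2l (0.29) and Ndufa4l2 (0.64), which are not standard subunits. Of all genes, 55.6% were above 0, 12.5% had 12 h pools below all others and 0.333% were called lower; the 7 calls prompted the count and lend it no support. Cox8a, a subunit of cytochrome oxidase, read 11024 and 8848 at 4 h, 4153 and 2528 at 12 h, and 5826 and 6431 at 24 h, a log2 change of -1.26 ± 0.27. Uqcr10, of complex III, read 12277 and 10274 at 4 h, 6012 and 3794 at 12 h, and 8230 and 8931 at 24 h, a log2 change of -1.04 ± 0.21. The other called subunits were Cox8b, Uqcr11, Uqcrq, Ndufa6 and Atp5g2. The 2 kept probe sets of Atp5g2 opposed each other at -0.90 and 0.17. The family's median log2 change was -0.14 and differed little between 4 h (-0.11) and 24 h (-0.15) as the comparator; in the CLA pools it was 0.08.

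Cytosolic ribosomal proteins had 32 of 44 genes below 0, mitochondrial ribosomal proteins 51 of 76 and genes with proteasome symbols 30 of 42, with medians of -0.14, -0.15 and -0.21. The 42 were taken by symbol and include Psmc3ip (0.08) and Psme3ip1 (0.18), which are not proteasome subunits. The splicing factors and hnRNPs went the other way from the ribosomal and proteasome families, with 18 of 26 above 0 and a median of 0.19. Of the 26, 13 had 12 h pools above all others, where 18.3% of all genes did. Srsf2, Hnrnpd and Hnrnpdl, called above, are among the 26 and lend the count no support. On unscaled arrays the medians were 0.14 for the respiratory chain, 0.14 and 0.13 for the ribosomal families, 0.07 for the proteasome and 0.47 for the splicing factors, all beside a median of 0.33 over all genes, so these families kept their side relative to all genes. With the Actb covariate 66 of the 80 respiratory chain genes were below 0 (median -0.21). In that fit 15 of the 26 splicing genes, or 57.7%, were above 0 (median 0.12), near the 52% of all genes. Replicate 2 of 12 h, with the Actb ratio of 6.41, had the highest splicing median of the 6 LA pools. It also had the lowest proteasome, respiratory chain and cytosolic ribosomal medians. Without that pool the median log2 changes were -0.16 for the respiratory chain and -0.11 and -0.15 for the cytosolic and mitochondrial ribosomal families. They were -0.16 for the proteasome and 0.15 for the splicing factors, beside 0.03 over all genes. The part of RNA quality in these results was not tested beyond the covariate and the fits without that pool.

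**Figure D5:**
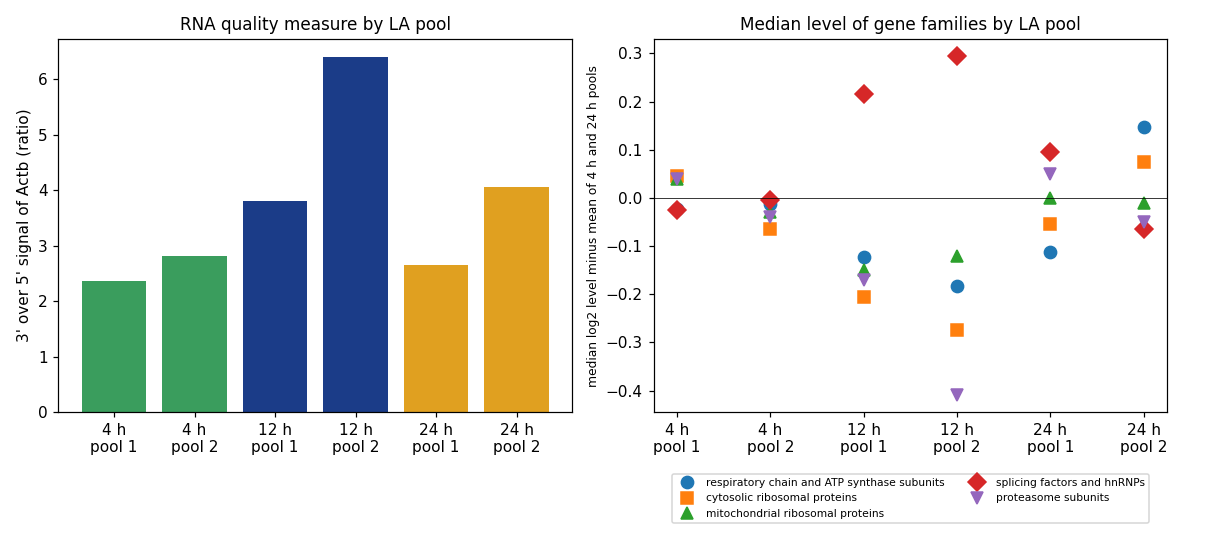
Left, bars of the ratio of 3' to 5' signal of Actb in each LA pool, from 2.37 at 4 h to 6.41 in replicate 2 of 12 h. Right, the median log2 level of 5 gene families in each LA pool, less the mean of the 4 h and 24 h pools; at 12 h the splicing factors and hnRNPs lie above 0 and the other 4 families below.

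Between the comparator times themselves, 24 h against 4 h, 0 genes passed limma and 1032 (8.17%) had an unadjusted p under 0.05. With an intensity trend 13 passed (0.103%), 6 higher (0.0475%) and 7 lower (0.0554%) at 24 h. The 6 higher were all genes of the liver: Fabp1, Ttr, Serpina1b, Serpina1c, Mup3 and Alb. Ttr, the carrier of thyroid hormone made by the liver, read 91.9 and 160 at 4 h, 392 and 829 at 12 h, and 3428 and 1890 at 24 h. Alb, albumin, read 2052 and 1828 at 4 h, 1716 and 2109 at 12 h, and 6739 and 4540 at 24 h. All 8 liver markers tested lay below 0 at 12 h against the mean of the other times, and none had 12 h pools beyond the others; the part of liver RNA in the 12 h comparison was not tested.

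The 7 lower genes at 24 h were Nfil3, Pik3r1, Ppp1r3b, Angptl8, Mapk6, Dusp16 and B4galt1. Angptl8, a secreted inhibitor of lipoprotein lipase that follows feeding, read 6505 and 4137 at 4 h, 3917 and 2830 at 12 h, and 2188 and 1896 at 24 h. Ppp1r3b, a subunit that directs a phosphatase to glycogen, read 9186 and 7116 at 4 h, 7041 and 7447 at 12 h, and 3487 and 2229 at 24 h. Both had 12 h levels between or within those of the other times, with log2 changes of -1.34 and -1.53 from 4 h to 24 h (adjusted p 0.0443 and 0.0283 with an intensity trend). Against 24 h alone, 2 genes passed limma at 12 h, Pgr higher and Scarf1 lower (adjusted p 0.0434 for both), 0.00792% of all genes each way, and both were under 100 in at least 4 of the 6 LA pools.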

How the data were processed

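RNA pools of white fat from LA-fed and CLA-fed mice were measured on 12 Affymetrix arrays. The deposited intensity table, per the file headers and the values, holds linear signals of 45101 probe sets, some below 0; the probe summary method is not given in the sources used here. Ratio tables that compare diets were not used here. Each array was scaled to a 2% trimmed mean of 500, negatives became 0, and log2(value + 16) was tested. Probe sets at 100 or more on at least 2 arrays were kept (26016), and the one of highest mean stood for each of 12627 genes. The platform's annotation gave 1 symbol for 34945 probe sets, several for 932 and none for 9160. All 6 groups entered limma 3.58.1 (R 4.3.3), tested on simulated data, two-sided, with Benjamini-Hochberg adjustment at 0.05. Errors are standard errors, and the number of arrays limits precision. Folds compare scaled values plus 16, with a side wholly under 100 set at 100.

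The genes, lists and rules were chosen with earlier results of these data known. The rule named up to 15 genes a direction past limma with a mean of at least 200, all clock genes and outputs, up to 4 passing members or the 2 of smallest p of each metabolic, hormone, stress and secreted list, and the white fat markers. None passed, so its first part was applied to the fit with an intensity trend after values were seen; other genes were named after their values were seen. Of 381 list entries, 307 were tested.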

Additional observations from a re-analysis of the deposited data

Results flagged for a closer look

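In 4 of the 76 named genes, 1 of the 4 LA pools of 4 h and 24 h stood apart from the others by more than the 95% critical value of Dixon's test, which chance alone reaches in about 1 of 20 groups. The pool was replicate 1 of 24 h each time. The gap as a share of the range was 0.906 for Ccl2, where it read 594 against 373 to 390, 0.9 for Csnk1e, at 709 against 862 to 881, and 0.884 for Rora, at 1090 against 1421 to 1471. For Hoxc9 it was 1, since the other 3 pools lay below 0 and were set to 0.

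The 12 h change of Hoxc9 differed between the diets by 6.08 on the log2 scale (limma, adjusted p 0.0464), with 287 and 312 in the LA pools of 12 h and -73.9 and -71.6 in the CLA pools of 12 h. Both 12 h LA pools exceeded all 10 other arrays, of which the highest read 80. Hoxc9 thus passed the intensity filter only through the 2 pools where it was high, so its p lends no support. All other arrays were under 100, so the size of the difference depends on the offset.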

How the results depend on the processing

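Replicate numbers were not taken to pair the pools: across 6325 genes, differences between replicates correlated at 0.108, -0.0413 and 0.18 between the LA times, and from -0.415 to 0.394 over all pairs of groups. Ordinary limma called 0 genes at 12 h. It called 67 with an intensity trend, 2 on unscaled arrays, 2 with an offset of 50, 2 without the filter, 4 where at least 2 LA arrays had to reach 200, 1 with only the LA arrays in 3 groups, 0 with the replicate block, and 0 to 1 without each array in turn. For 24 h against 4 h the count of 0 became 13 with an intensity trend and 2 without the filter, with the limit of 200 and with only the LA arrays, and 0 to 2 without each array. The clock genes called were 0, or 2 with an intensity trend. For CLA the count of 98 became 443 with an intensity trend, 11 unscaled, 155 with the offset of 50, 307 with the limit of 200, 65 with averaged probe sets, 47 with the replicate block, 4 with the Actb covariate, and 2 to 395 without each array. The 6 differences between diets became 60 with an intensity trend, 2 unscaled, 1 with the block, 1 with the covariate, and 1 to 4 without each array.

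The 67 calls with an intensity trend were examined under settings chosen after seeing the data. The count was 65 after quantile normalization, 456 unscaled (430 higher and 26 lower, where the main split was 25 and 42), 83 with an offset of 50 and 43 with 4, 5 without the filter, 116 with the limit of 200, 21 with averaged probe sets, 511 and 42 with only the LA arrays in 3 and 2 groups, 255 with the replicate block, and 0 with the Actb covariate. Without each array it ran from 0 to 826: 0 without replicate 2 of LA 12 h, 4 and 9 without replicates 1 and 2 of LA 4 h, 38 and 7 without those of LA 24 h, 13 without either of CLA 24 h, and 826 and 813 without those of CLA 4 h. Unscaled, the median of all genes moved from 0.06 to 0.33.

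Of the named genes' values under the alternatives, 1756 kept their direction and side of the threshold, 42 passed it and 22 changed sign. Signs changed unscaled for Npas2 (0.15), Per1 (0.12), Fabp4 (0.18), Pparg (0.0241), Retn (0.11), Lpl (0.13) and Cd36 (0.052), after quantile normalization for Npas2 (0.0024) and Fabp4 (0.0182), with averaged probe sets for Clock (-0.077), Dbp (-0.22), Tef (-0.33) and Hsd17b7 (-0.22), and with the covariate for Dbp (-0.44). Without each array in turn, sign changes occurred in the ranges of Npas2 (-0.30 to 0.13), Per1 (-0.42 to 0.16), Dbp (-0.13 to 0.47), Timeless (-0.01996 to 0.49) and Nfil3 (-0.0796 to 0.23). The cause was not tested for any of these.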
